A study of Saccharomyces cerevisiae with 18 samples.

Results

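The 9 genes described here make up the core of folate-dependent one-carbon metabolism in budding yeast (Saccharomyces cerevisiae). They are GCV1, GCV2 and GCV3 of the glycine cleavage complex, the serine hydroxymethyltransferases SHM1 and SHM2, the tetrahydrofolate interconversion enzymes MIS1, ADE3 and MTD1, and the methylenetetrahydrofolate reductase MET13. They are 9 of the 7126 features in the RNA tables and were picked by their systematic names with RNA ratios of these libraries already known, so every RNA ratio given below describes the choice as well as the strains. All 9 were matched by systematic name, and all 9 averaged at least 20 counts over the 5 RNA libraries.

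One-carbon metabolism moves single carbons, carried on tetrahydrofolate, from serine and glycine to the synthesis of purines, thymidylate and methionine. Serine hydroxymethyltransferase passes a carbon of serine to the carrier and leaves glycine. The glycine cleavage complex, which sits in mitochondria, breaks glycine down to carbon dioxide and ammonia and loads its remaining carbon on the carrier. SHM1 and MIS1 encode mitochondrial enzymes, whereas SHM2, ADE3, MTD1 and MET13 encode cytosolic ones. In yeast, glycine added to the medium is known to raise transcription of the GCV genes, and the factors Bas1 and Pho2 are known to drive SHM2, MTD1 and the adenine genes when adenine is short.

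The study addressed what the HMG-box protein Hmo1 and the DNA topoisomerase Top2 do to chromatin and transcription. RNA was sequenced from the hmo1Δ;top2-1 double mutant, the hmo1Δ deletion strain, the temperature-sensitive top2-1 strain and wild type, each as log cells moved from 28 °C to 37 °C for 60 min. The remaining library came from wild-type cells labelled as arrested in G1 and released for 15 min at 28 °C, so by that label it differs from the others in cell cycle as well as temperature. The growth protocol deposited with that library gives the 37 °C shift instead, so its growth conditions rest on the sample label. Histone H3 ChIP covered top2-1;top1Δ cells with a plasmid for Escherichia coli TopA, the same strain with a control plasmid, wild type with TopA, and wild type with the control plasmid. Tagged Hmo1 was immunoprecipitated from top2-1;top1Δ cells with TopA and from control-plasmid cells whose genotype field gives only the tag. The title of that control sample names top2-1 and top1 as well; the genotype field is followed here. Those 6 ChIP libraries came from cells held at 37 °C for 2 h 15 min. The remaining 1 was a Top2 ChIA-PET library, which ligates DNA ends brought together by Top2-bound chromatin. It came from wild type labelled as log cells at 28 °C. The protocol given for that library names alpha-factor arrest and release instead, so its cell state rests on the label. The hmo1Δ RNA and the top2-1;top1Δ chromatin are different strains, and Hmo1 is present in all of the chromatin libraries.

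Each group is 1 library, so no difference below was tested between conditions, and intervals cover counting error only. Levels are given as TPM, the authors' estimate per gene length and library, and ratios as log2 ratios of counts scaled by TMM, which assumes that most genes keep their level. A gene is counted as higher or lower when that ratio reaches 2-fold. The RNA libraries held 4752497 to 14770310 counts. HMO1 had 0 counts in the double mutant and 0 in hmo1Δ, against 1327 in top2-1, 1152 in wild type at 37 °C and 1386 in wild type at 28 °C. TRP1, a common selection marker, was at 0 counts in the same 2 libraries, against 204, 152 and 217 in the other 3. Loss of HMO1 and of TRP1 expression therefore cannot be told apart in these strains. Protein-coding genes took 97.9% to 98.1% of the counts at 37 °C and 77.6% in wild type at 28 °C. TOP2 itself had 1472 counts in the double mutant, 743 in hmo1Δ, 933 in top2-1, 887 in wild type at 37 °C and 4613 in wild type at 28 °C; its allele is not visible in counts. Of 4 mating-type a markers, 2 were 2-fold lower in hmo1Δ than in wild type (BAR1, log2 ratio -2.48, and MFA2, -1.25), and STE2 was at -0.41 and ASG7 at 0.66. Of 3 mating-type alpha markers, 0 differed 2-fold.

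The glycine cleavage genes were all higher in both hmo1Δ strains than in wild type at 37 °C. GCV1 (YDR019C, chromosome IV:484163-485365, minus strand, all coordinates on build R64) encodes the T subunit, which hands the carbon to tetrahydrofolate. It stood at 462 TPM in the double mutant, 464 in hmo1Δ, 198 in top2-1, 113 in wild type at 37 °C and 34.3 in wild type at 28 °C. The double mutant and hmo1Δ were the highest of the 5 libraries, and the TMM-scaled count ratio of hmo1Δ to wild type at 37 °C was 2.34 on the log2 scale (95% counting interval 2.23 to 2.45).

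GCV2 (YMR189W, XIII:637500-640604, plus strand) encodes the P subunit, the glycine decarboxylase. It stood at 243 TPM in the double mutant, 217 in hmo1Δ, 44.5 in top2-1, 48.4 in wild type at 37 °C and 54.9 in wild type at 28 °C. Here top2-1 and wild type at 37 °C lay within counting error of each other (log2 ratio -0.09, -0.22 to 0.04), while hmo1Δ over wild type was 2.46 (2.36 to 2.56). GCV3 (YAL044C, I:57950-58462, minus strand) encodes the H subunit, the lipoyl carrier of the complex, and was the closest of the 3 to wild type in hmo1Δ. It stood at 850.1 TPM in the double mutant, 679 in hmo1Δ, 725 in top2-1, 417 in wild type at 37 °C and 116 in wild type at 28 °C. Its 3 mutant libraries were all above wild type, with log2 ratios of 1.21 in the double mutant, 1.02 in hmo1Δ and 0.84 in top2-1.

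The complex's parts did not keep a fixed proportion. The TPM of GCV3 was 1.84 times that of GCV1 in the double mutant and 1.46 times in hmo1Δ, against 3.66 times in top2-1, 3.68 times in wild type at 37 °C and 3.39 times in wild type at 28 °C. LPD1, the L subunit, which also serves the ketoacid dehydrogenases, stood at 249 TPM in the double mutant, 236 in hmo1Δ, 235 in top2-1 and 229 in wild type at 37 °C. Its hmo1Δ over wild type log2 ratio was 0.35, below that of each of the 3 GCV genes.

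The cytosolic and the mitochondrial serine hydroxymethyltransferase differed. SHM2 (YLR058C, XII:257992-259401, minus strand), the cytosolic form, stood at 1129.6 TPM in the double mutant, 937 in hmo1Δ, 267 in top2-1, 180 in wild type at 37 °C and 234 in wild type at 28 °C. With a log2 ratio of 2.68 (2.60 to 2.76) in hmo1Δ over wild type it was the member furthest from wild type, and it ranked 43 of 6085 genes from the top. SHM1 (YBR263W, II:736264-737736, plus strand), the mitochondrial form, stood at 176 TPM in the double mutant, 148 in hmo1Δ, 185 in top2-1, 204 in wild type at 37 °C and 75.9 in wild type at 28 °C. Its hmo1Δ over wild type log2 ratio was -0.16 (-0.25 to -0.06). SHM2 was therefore 6.40 times as abundant as SHM1 per length in the double mutant and 6.32 times in hmo1Δ, against 1.44 times in top2-1, 0.881 times in wild type at 37 °C and 3.09 times in wild type at 28 °C.

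**Figure D1:**
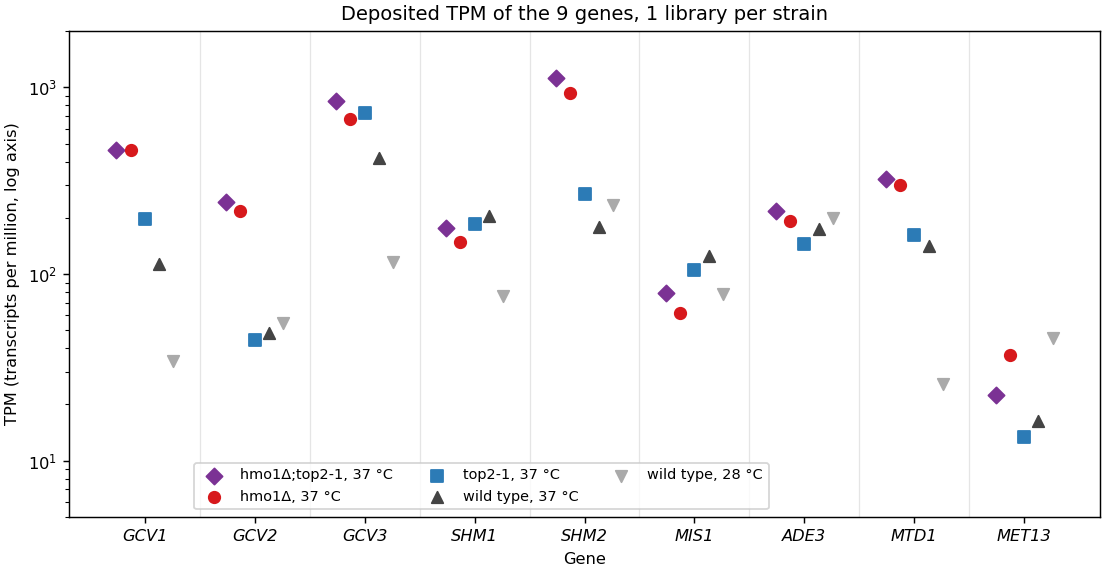
Deposited TPM (log axis) of the 9 genes in the hmo1Δ;top2-1, hmo1Δ, top2-1 and wild-type libraries at 37 °C and the wild-type library at 28 °C, 1 point per library with no replicates. SHM2 is at 1129.6 TPM in the double mutant and 937 in hmo1Δ against 180 in wild type at 37 °C, whereas SHM1 stays between 148 and 204 TPM in the 4 libraries at 37 °C.

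The trifunctional interconversion enzymes also differed, the mitochondrial one being lower and the cytosolic one higher in hmo1Δ than in wild type. Compartment did not sort the members, since the mitochondrial GCV1, GCV2 and GCV3 were higher, at log2 ratios of 2.34, 2.46 and 1.02. MIS1 (YBR084W, II:411054-413981, plus strand), the mitochondrial trifunctional C1-tetrahydrofolate synthase, stood at 79.2 TPM in the double mutant, 62.1 in hmo1Δ, 105 in top2-1, 125 in wild type at 37 °C and 78.3 in wild type at 28 °C. It was the member with the lowest hmo1Δ over wild type log2 ratio, -0.71 (-0.80 to -0.62). ADE3 (YGR204W, VII:905934-908774, plus strand), its cytosolic counterpart, stood at 217 TPM in the double mutant, 192 in hmo1Δ, 145 in top2-1, 174 in wild type at 37 °C and 199 in wild type at 28 °C. Its hmo1Δ over wild type log2 ratio was 0.43 (0.37 to 0.50), under 2-fold.

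MTD1 (YKR080W, XI:590395-591357, plus strand), the cytosolic NAD-dependent methylenetetrahydrofolate dehydrogenase, was higher in both hmo1Δ strains. It stood at 324 TPM in the double mutant, 299 in hmo1Δ, 162 in top2-1, 141 in wild type at 37 °C and 25.6 in wild type at 28 °C, and its hmo1Δ over wild type log2 ratio was 1.39 (1.27 to 1.51). MET13 (YGL125W, VII:272520-274322, plus strand) commits the carbon to methionine by making methyltetrahydrofolate. It was the least abundant member in each library at 37 °C, with 22.4 TPM in the double mutant, 37.0 in hmo1Δ, 13.3 in top2-1 and 16.4 in wild type, and it stood at 45.3 in wild type at 28 °C. Its hmo1Δ over wild type log2 ratio of 1.47 rests on 602 counts in hmo1Δ and 171 in wild type and has the widest interval of the 9 (1.23 to 1.73).

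In hmo1Δ over wild type, 6 of the 9 members were at least 2-fold higher (SHM2, GCV2, GCV1, MET13, MTD1 and GCV3) and 0 were 2-fold lower. The background over all 6085 genes was 6.94% higher and 5.46% lower by that rule. Since the members were chosen with this contrast known, nothing is read from the comparison. The member median was 1.39 and the median of all genes -0.01. GCV3 sat at the edge, and its log2 ratio was 0.78 with library totals and 0.70 with TPM, which leaves 5 members past 2-fold. Those scalings moved the median of all genes to -0.25 and -0.31, and the share of called genes that were higher was 56.0% with TMM, 32.3% with library totals and 27.6% with TPM. The 3 members under 2-fold in this contrast kept their order and sign under those scalings, with ADE3 at 0.19 and 0.13, SHM1 at -0.40 and -0.46, and MIS1 at -0.95 and -0.99.

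In top2-1 over wild type, 0 members were 2-fold higher or lower, against a background of 1.51% higher and 0.871% lower. GCV1 at 0.84 (0.72 to 0.97), GCV3 at 0.84 (0.73 to 0.95) and SHM2 at 0.60 (0.51 to 0.70) were the highest. MTD1 was at 0.23, SHM1 at -0.10, MIS1 at -0.21, ADE3 at -0.23 and MET13 at -0.26, the last with an interval of -0.57 to 0.05.

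**Figure D2:**
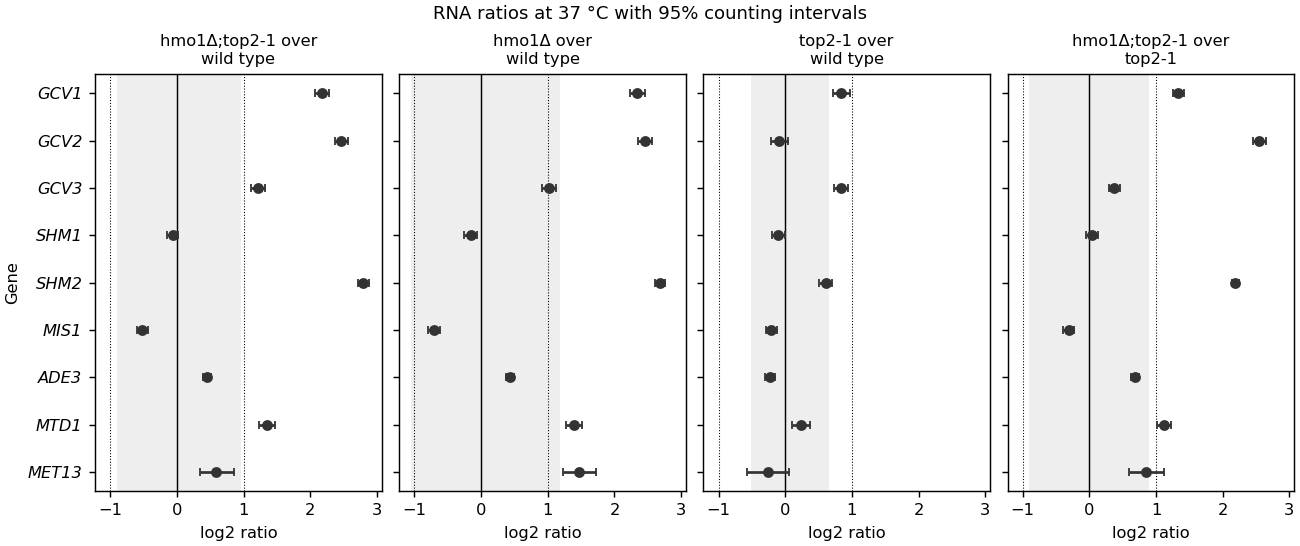
TMM-scaled log2 ratios of the 9 genes at 37 °C in 4 comparisons, with bars for 95% counting intervals, dotted lines at 2-fold and a grey band over the central 90% of all 6085 genes. SHM2, GCV2 and GCV1 lie beyond 2 on the log2 scale in the double mutant and in hmo1Δ over wild type, and GCV1 and GCV3 lie outside the band in top2-1 over wild type.

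In the double mutant over wild type, 5 members passed 2-fold upward and 0 downward, where 4.4% of all genes were higher and 3.68% lower. SHM2 was at 2.79 (2.72 to 2.87), GCV2 at 2.46 (2.36 to 2.56), GCV1 at 2.17 (2.07 to 2.29), MTD1 at 1.35 (1.24 to 1.47) and GCV3 at 1.21 (1.11 to 1.31). MET13 was at 0.59 (0.34 to 0.85), below its value in hmo1Δ, while MIS1 was at -0.52 and SHM1 at -0.07. Against top2-1, 4 members were 2-fold higher in the double mutant and 0 lower, where 3.65% of all genes were higher and 3.78% lower. They were GCV2 at 2.55, SHM2 at 2.19, GCV1 at 1.33 and MTD1 at 1.12. MTD1 was at 0.997 with TPM, just under 2-fold. These comparisons share the double mutant and wild type libraries, so they do not count as separate evidence.

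In the double mutant over hmo1Δ, 0 members were 2-fold higher or lower, where 1.69% of all genes were higher and 2.48% lower. MET13 was the furthest, at -0.88 (-1.06 to -0.71), and the other 8 lay between -0.16 and 0.19. GCV2 was at 0.00 (-0.04 to 0.05). GCV1 was at -0.16 with TMM and at 0.02 with library totals.

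The sum of the log2 ratios of hmo1Δ and top2-1 over wild type was compared with the double mutant. GCV1 had a sum of 3.18 and a double-mutant ratio of 2.17, so it fell 1.00 short (-1.14 to -0.87). That was the 4.39th percentile of all genes, just inside the lowest 5%, whose limit of -0.92 falls within the interval. GCV3 was at -0.64, MET13 at -0.62, SHM2 at -0.49 and MTD1 at -0.27, each with an interval below 0. MIS1 at 0.40, ADE3 at 0.25 and SHM1 at 0.20 had intervals above 0, and GCV2 at 0.09 had one that included 0. The median over all genes was 0.00. Library totals and TPM raised these departures: MTD1 was at -0.12 and -0.08, GCV2 at 0.24 and 0.28, and GCV1 at -0.85 and -0.81.

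**Figure D3:**
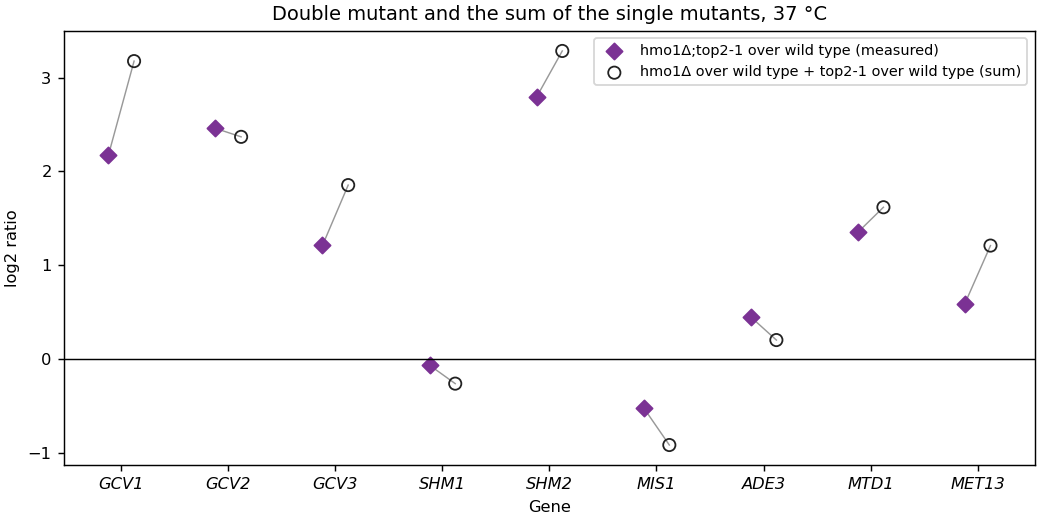
Log2 ratios over wild type at 37 °C of the double mutant (diamonds) and the sum of the hmo1Δ and top2-1 ratios (open circles) for each gene, 1 library per strain. GCV1 shows the widest gap, 2.17 against a sum of 3.18, and GCV2 the narrowest, 2.46 against 2.37.

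The 9 members together made up 3503 TPM in the double mutant, 3034 in hmo1Δ, 1846 in top2-1, 1418 in wild type at 37 °C and 864 in wild type at 28 °C. By share of all counts they made up 0.609%, 0.522%, 0.283%, 0.249% and 0.419% in the same order. The place of wild type at 28 °C therefore depends on the measure: lowest in TPM, but above wild type at 37 °C and top2-1 in counts. SHM2 alone gave 32.2%, 30.9%, 14.5%, 12.7% and 27.1% of the TPM sums in the same order. The double mutant and hmo1Δ ranked the members identically by TPM, from SHM2, GCV3 and GCV1 at the top to MIS1 and MET13 at the bottom. In top2-1 and wild type at 37 °C GCV3 came first. Among protein-coding genes SHM2 stood at the 97.7th and 97.0th percentile in the double mutant and hmo1Δ, against the 90.1st in top2-1 and the 85.0th in wild type at 37 °C.

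Wild type at 37 °C over wild type at 28 °C compares both temperature and cell-cycle state, as the sample labels give them. The libraries also differed in make-up, with 98.1% of counts on protein-coding genes at 37 °C and 77.6% at 28 °C. These differences cannot be told apart here. With TMM, 5 members were 2-fold or more lower at 37 °C and 0 higher, where 15.1% of all genes were higher and 17.3% lower. MET13 was at -3.43 (-3.67 to -3.22), SHM2 at -2.36, ADE3 at -2.14, GCV2 at -2.13 and MIS1 at -1.28. These values depend on the scaling, which moved the median of all genes from 0.01 to 0.88 with library totals and to 1.90 with TPM. MET13, SHM2, ADE3 and GCV2 stayed negative in both, while MIS1 was at 0.66 with TPM. GCV1 at -0.27, GCV3 at -0.24 and SHM1 at -0.55 turned positive with library totals, and MTD1 was at 0.46, 1.34 and 2.42 under TMM, library totals and TPM. MET13 was the lowest of the 9 and MTD1 the highest under each of the 3 scalings.

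Other genes of the pathway were counted from lists chosen with earlier results of these libraries known. The shares of all genes in hmo1Δ over wild type were 6.94% higher and 5.46% lower. In hmo1Δ over wild type, 3 of 17 genes for folate supply and one-carbon use passed 2-fold upward and 1 downward, with a median of 0.08. MET6, the methionine synthase that uses the methyl group made by MET13, was at 2.76, and ADE17, a folate-dependent transformylase of purine synthesis, at 2.19. The third, FDH2, a formate dehydrogenase, was at 1.10 on 32 counts in hmo1Δ and 11 in wild type, with an interval of 0.17 to 2.34, and its TPM of 5.66 in hmo1Δ and 3.05 in wild type differed by less than 2-fold. DFR1, dihydrofolate reductase, was at -1.85 and CDC21, thymidylate synthase, at -0.68. In the 7 genes of the S-adenosylmethionine cycle 5 were higher and 1 lower with a median of 1.39, led by MET6 and the S-adenosylmethionine synthetase SAM2 at 2.59. SAM4, which recycles homocysteine with S-adenosylmethionine, was the low one at -1.49, and SAH1, S-adenosylhomocysteine hydrolase, was at 0.20.

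Of 10 genes of adenine synthesis, 3 passed 2-fold upward and 0 downward in hmo1Δ over wild type, with a median of 0.70. Among all genes 6.94% were higher and 5.46% lower in that contrast. ADE2 was at 2.52 and ADE17 at 2.19, whereas ADE57 was at 0.15 and ADE13 at 0.11. The same list had 3 higher in the double mutant over wild type, not all of them the same genes, where 4.4% of all genes were higher. It had 0 higher in top2-1 over wild type, where 1.51% of all genes were. Of 8 genes for serine and glycine supply, 1 was higher and 0 lower in hmo1Δ over wild type, with a median of 0.23. A single gene in so short a list is not set apart from the 6.94% of all genes. The higher gene was SER3, a phosphoglycerate dehydrogenase, at 1.59, followed by AGX1, which makes glycine from glyoxylate, at 0.74. CHA1, a serine and threonine deaminase, was at -0.76 and SER2, the phosphoserine phosphatase, at -0.39. Among 8 regulators, 0 passed 2-fold in either direction and the median was 0.33. GCN4, the general control activator, was at 0.87 and PHO2 at 0.78, against BAS1 at -0.56 and MET31 at -0.41.

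Genes of similar profile were ranked by root mean square distance over the 5 libraries among 5449 genes with at least 100 counts on average. SNZ1, of vitamin B6 synthesis, lay nearest to SHM2 at 0.158 log2 units, followed by HHF1 (histone H4) at 0.407, ADH2 at 0.439, HPF1 at 0.444 and MDH2 at 0.448. GCV2 was at 0.226 from SHM2, nearer than every non-member except SNZ1. The mean of the 9 members was matched best by RPS27A (0.104), NCB2, RPS21A, GDS1 and SED1 (0.169). The members themselves lay 0.53 to 0.96 from that mean, so it stands for none of them.

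Few of the genes next to the members passed 2-fold. Of 18 flanking genes, 17 averaged 20 counts, and in hmo1Δ over wild type 1 was 2-fold higher and 1 lower, near the 6.94% and 5.46% of all genes, with a median of -0.33. The higher one was MLG1, 302 bp downstream of GCV1, at 1.59 on 210 counts in hmo1Δ and 54 in wild type. In top2-1 over wild type MLG1 was at 0.83, on 117 and 54 counts, and GCV1 at 0.84. The 2 genes were apart in the double mutant, at 0.39 and 2.17 over wild type and -0.44 and 1.33 over top2-1. The lower one was SCS3, 380 bp upstream of MET13, at -1.40. MRPS17, which is transcribed away from GCV2 across a gap of 495 bp, was at -0.33, against 2.46 for GCV2.

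Hmo1 peaks covered 7 of the 9 promoters, taken as 500 bp before the start codon, in both lists of the authors' peaks. The 7 were GCV1, GCV2, GCV3, SHM2, MIS1, ADE3 and MET13. Of 6002 nuclear coding genes, 41.4% had such a peak in top2-1;top1Δ cells with TopA and 45.2% in the control-plasmid cells. SHM1 and MTD1 had none, and their nearest peaks in the control-plasmid list began 31927 bp and 8966 bp upstream of the start codon. MTD1 was at least 2-fold higher in hmo1Δ without a peak, and MIS1 and ADE3 were under 2-fold with one.

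The peaks over the members were mostly broad. GCV3 lay in a peak of 13953 bp in the TopA library and 37727 bp in the control library, and GCV2 in peaks of 10544 and 10713 bp. SHM2 lay in peaks of 9101 and 12016 bp and MIS1 in peaks of 9441 and 10962 bp. The list medians were 1326 and 1319 bp, and the peak over GCV1, at 1336 and 2581 bp, was the narrowest of the 7. The covering peaks all spanned the start codon and 90.7% to 100% of the coding region, so these calls do not single out the promoter.

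Peak scores, given by the authors, placed the members within each list and are not set against each other across lists. In the TopA list GCV3 was at the 87.9th percentile and MIS1 at the 86.3rd, and GCV1 was the lowest at the 38.0th. In the control list MET13 was at the 87.5th and GCV2 the lowest at the 41.6th. SHM2 was at the 52.8th percentile in the TopA list and the 76.6th in the control list.

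Across all genes with a promoter peak in the control list, 9.25% of 2529 were at least 2-fold higher in hmo1Δ over wild type, against 4.50% of 3070 without one. The members counted 5 of 7 with a peak and 1 of 2 without. They were chosen with this RNA contrast known, so nothing is read from those 2 counts. The lower calls were 4.98% with a peak and 4.76% without.

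**Figure D4:**
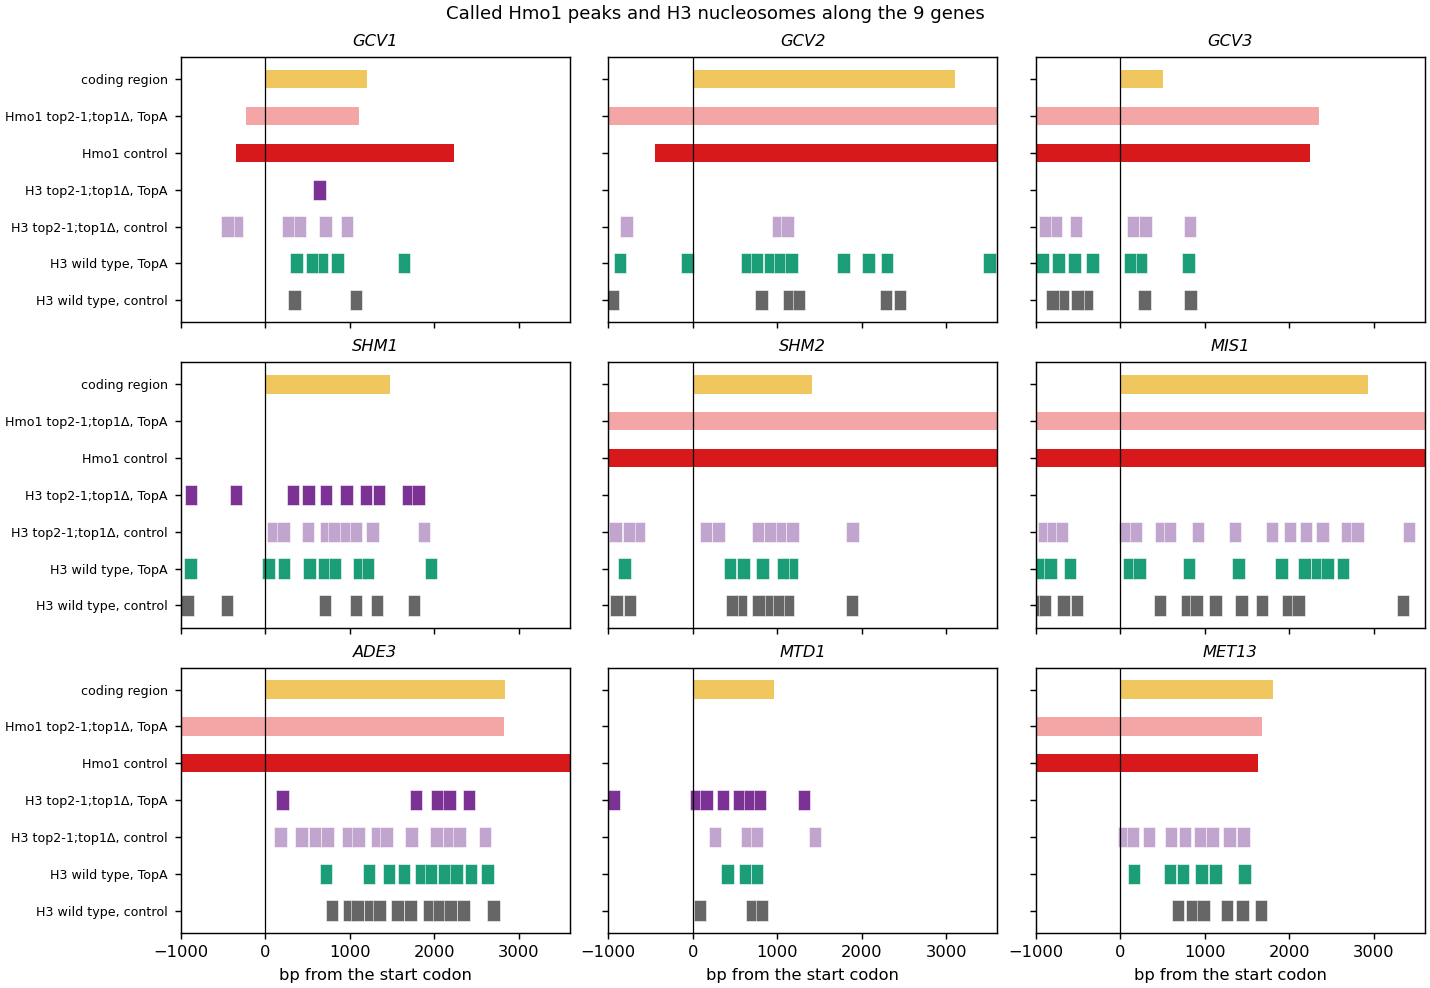
Called Hmo1 peaks (TopA plasmid in pale red, control plasmid in red) and H3 nucleosomes of 148 bp in 4 libraries, drawn by distance in bp from the start codon of each gene, with peaks cut at the panel edges. The top2-1;top1Δ TopA row is empty over the coding regions of GCV2, GCV3, SHM2, MIS1 and MET13, and filled over SHM1 and MTD1, which have no Hmo1 peak. ADE3 and GCV1 lie under Hmo1 peaks and have calls in that row, over 25.9% and 12.3% of the coding region.

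H3 cover was taken as the share of the coding region under nucleosomes called by the authors. Called cover is not occupancy: the top2-1;top1Δ TopA list held 10841 nucleosomes, against 21862 in top2-1;top1Δ with the control plasmid, 25035 in wild type with TopA and 22079 in wild type with the control plasmid. SHM1 and MTD1 kept called nucleosomes in the short list. SHM1 was covered over 60.3% of its coding region in top2-1;top1Δ with TopA, 72.2% in that strain with the control plasmid, 63.3% in wild type with TopA and 30.1% in wild type with the control plasmid. MTD1 was covered over 81.0%, 42.7%, 45.0% and 42.9% in the same order, and its TopA value in top2-1;top1Δ was at the 99.0th percentile of all coding genes.

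Of the 7 members under Hmo1 peaks, 5 had no called cover in top2-1;top1Δ with TopA. SHM2 was at 0% there, against 59.6% with the control plasmid in that strain, 49.3% in wild type with TopA and 53.0% in wild type with the control plasmid. MET13 was at 0%, 69.9%, 49.3% and 48.4% in the same order, MIS1 at 0%, 57.2%, 43.4% and 38.3%, and GCV3 at 0%, 57.7%, 53.4% and 28.8%. GCV2 was at 0%, 8.28%, 36.2% and 22.9%, which made it the only member under 40% in top2-1;top1Δ with the control plasmid. GCV1 was at 12.3%, 48.1%, 46.6% and 24.6%, and ADE3 at 25.9%, 64.2%, 50.8% and 58.0%. In top2-1;top1Δ with TopA those values put ADE3 at the 77.4th and GCV1 at the 64.7th percentile of all coding genes, whose mean cover was 14.6%.

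That 5 of 9 members were at 0 in top2-1;top1Δ with TopA is near the share of all coding genes, 54.4%. Genes with at least 50% of the coding region under Hmo1 peaks of the TopA library averaged 9.90% cover in that list and 62.0% of them were at 0 (n = 2177). Genes with no Hmo1 peak over the coding region averaged 20.6% with 48.3% at 0 (n = 2586). In the other 3 H3 lists the mean was higher under those Hmo1 peaks, for instance 36.9% under Hmo1 and 28.6% without in top2-1;top1Δ with the control plasmid. By the control-plasmid Hmo1 list the means in wild type with the control plasmid were level, at 28.2% under Hmo1 and 28.0% without. Calls per kb in the TopA list of top2-1;top1Δ also varied by chromosome, with 1.51 on chromosome XI (MTD1), 1.32 on II (SHM1 and MIS1), 1.25 on I (GCV3) and 0.502 on XII (SHM2). SHM1 and MIS1 share chromosome II and stood at 60.3% and 0%; the part that chromosome and call number play was not tested.

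**Figure D5:**
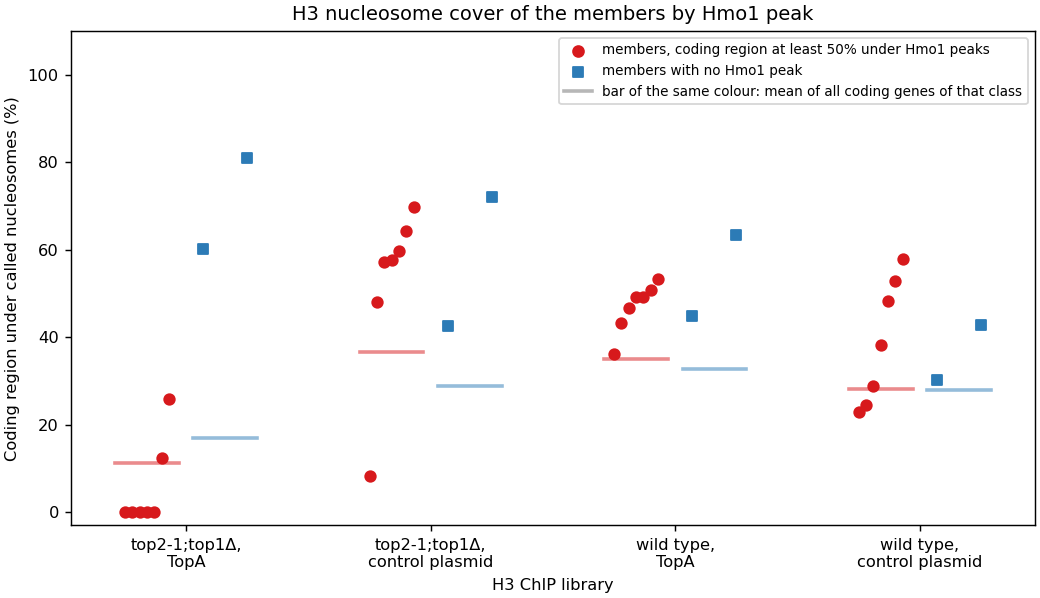
Share of the coding region under called H3 nucleosomes for the members under Hmo1 peaks (red circles) and without one (blue squares) in 4 H3 libraries, with bars for the mean of all coding genes of each class by the control-plasmid Hmo1 list. In top2-1;top1Δ with TopA the 7 red members lie between 0% and 25.9%, and the 2 blue ones at 60.3% and 81.0%.

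The members' cover was higher in top2-1;top1Δ than in wild type, both with the control plasmid, for 7 of 9, with a median difference of 18.9 percentage points where the median of all genes was 0 and 40.1% of them were lower. SHM1 at 42.0 points had the widest gain. With TopA in wild type, 7 of 9 were again higher than with the control plasmid, by a median of 5.09 points against 0.43 for all genes, of which 30.0% were lower. With weaker nucleosomes left out by summit value, 6 of 9 were higher and the member median was 13.1 points. The median of all genes was then 0, and 28.5% of them were lower. The share of all genes that were higher was not counted, and ties mean that the shares lower do not give it. With all nucleosomes kept, 0 members had no cover in these lists. Of all genes, 17.8% had none in top2-1;top1Δ with the control plasmid, 15.7% in wild type with TopA and 21.7% in wild type with the control plasmid. In the last of these the median was 38.3% for the members and 29.1% for all genes. TopA in top2-1;top1Δ over the control plasmid gave a median of -38.3 points for the members and -16.2 for all genes, with MTD1 the only member higher and 66.6% of all genes lower. The members began from more cover in that strain with the control plasmid, at a median of 57.7% against 31.4% for all genes. With TopA both medians were 0%, so the wider drop does not by itself mark a stronger loss at the members. Promoters carried few calls. Of the 9, 7 were at 0% in top2-1;top1Δ with TopA, 5 in that strain with the control plasmid, 6 in wild type with TopA and 6 in wild type with the control plasmid. The shares of all coding genes at 0 were near these, at 80.1%, 63.1%, 66.7% and 73.6% in the same order. The promoters of SHM2 and ADE3 were at 0% in all 4 lists, and that of GCV1 was at 48.4% in top2-1;top1Δ with the control plasmid and 0% in the other 3.

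Anchors of Top2 ChIA-PET clusters touched the coding regions of GCV2, GCV3, SHM1 and MIS1, 4 of 9 members, where 34.9% of 6002 coding genes were touched. GCV2 had a cluster of 3 tags with both anchors in the gene, at XIII:639253-639846 and XIII:640514-640944, the second running past the stop codon. SHM1 had a cluster of 2 tags that joined its start, at II:736139-736601, to its end, at II:737690-737899, and another of 2 tags to chromosome XV. GCV3 had 1 cluster of 3 tags and MIS1 2 clusters of 2 tags, each linking the gene to flanking DNA. SHM2, GCV1, ADE3, MTD1 and MET13 had none, and with 2 or 3 tags a cluster the absence of a call says little about contact.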

How the data were processed

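RNA was measured in 5 libraries; histone H3 ChIP in 4, Hmo1 ChIP in 2 and Top2 ChIA-PET in 1, each alone in its group, and 6 input samples were not analysed here. The authors aligned and quantified RNA with STAR and RSEM on R64, per the submitters' processing notes, and deposited expected counts and TPM (transcripts scaled to a fixed total) per gene; the deposited FPKM values were not used here. The Hmo1 lists hold a deposited score per peak, and the H3 lists give a deposited summit signal per called nucleosome; their callers are not given in the sources used here, nor is the build of the ChIA-PET clusters, which was read as R64 and gives tag counts as deposited.

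Expected counts were rounded, features averaging under 20 counts were dropped (6085 of 7126 kept), and log2 CPM with a prior count of 2 was computed after TMM scaling (edgeR 4.0.16, R 4.3.3). Counting intervals are exact Clopper-Pearson at 95% for the ratio of 2 libraries; the departure from additivity uses a normal interval. The calculation was tested on simulated data. Gene positions come from the RefSeq table for R64. A promoter is 500 bp before the start codon, and overlap needs 1 bp. The members and lists were chosen with earlier results of these data known. Named genes are all members and, from each list, the 2 highest and 2 lowest in hmo1Δ over wild type, with the 5 nearest profiles to SHM2 and to the member mean; FDH2, LPD1, MRPS17, MLG1 and SCS3 and the markers were added after values were seen.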

Additional observations from a re-analysis of the deposited data

Results flagged for a closer look

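For 3 members the log2 ratio of top2-1 to its HMO1-matched strain took opposite signs without and with Hmo1, with both counting intervals clear of 0. For GCV1 it was -0.16 without Hmo1 (double mutant over hmo1Δ) and 0.84 with Hmo1 (top2-1 over wild type), and the value without Hmo1 was 0.02 with library totals. For SHM1 the ratios were 0.092 without Hmo1 and -0.10 with it. For MIS1 they were 0.19 without Hmo1 and -0.21 with it. The signs also differed for GCV2 (0.00 without and -0.09 with Hmo1), ADE3 (0.02 and -0.23) and MTD1 (-0.04 and 0.23), where the interval without Hmo1 included 0. For GCV2 the interval with Hmo1 (-0.22 to 0.04) included 0 as well. With library totals MTD1 was at 0.15 without and 0.27 with Hmo1, so its signs did not differ by that scaling. With 1 library per strain, the difference was not tested for any of them.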

How the results depend on the processing

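No paired analysis was possible because each group holds 1 library, and no replicate could be left out. With library totals, genes at least 2-fold higher and lower numbered 279 and 585 in hmo1Δ over wild type, 198 and 100 in the double mutant over hmo1Δ, and 2734 and 408 in wild type at 37 °C over 28 °C, where 1 member was higher. With TPM they numbered 244 and 640 in hmo1Δ over wild type and 4973 and 216 in wild type at 37 °C over 28 °C, where 4 members were higher and 1 lower and MIS1 turned to 0.66; 174 genes were higher in the double mutant over wild type and 145 in the double mutant over top2-1. With coding genes only, 40 were higher and 22 lower in top2-1 over wild type and 44 higher in the double mutant over hmo1Δ. With a mean of at least 100 counts these were 55, 22 and 52, and with no count filter 186, 106 and 190. At 1.5-fold, higher and lower genes numbered 977 and 936 (hmo1Δ over wild type), 355 and 230 (top2-1 over wild type), 746 and 653 (double mutant over wild type), 670 and 653 (double mutant over top2-1), 441 and 482 (double mutant over hmo1Δ) and 1682 and 1704 (37 °C over 28 °C). At 1.5-fold 3 members were higher in top2-1 over wild type, 1 was lower in hmo1Δ over wild type and 1 lower in the double mutant over hmo1Δ. The share of called genes that were higher was 54.5% with TMM and 36.0% with TPM in the double mutant over wild type, 49.1% and 34.2% over top2-1, 40.6% and 59.8% over hmo1Δ, and 46.5% and 95.8% at 37 °C over 28 °C.

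Among Hmo1 peaks above the median score 4 members kept a promoter peak in the TopA list, where 28.5% of all coding genes did. In the control list 5 members did, against 32.7% of all coding genes. Top2 clusters above the median tag count touched 2 members, where 9.60% of all coding genes were touched. A summit value of at least 1.4 in all H3 lists, chosen after seeing the data, left the members' cover as it was. It kept 25034 of 25035 nucleosomes in wild type with TopA and 22078 of 22079 in wild type with the control plasmid. All calls of the top2-1;top1Δ lists were kept, so this setting could hardly change the cover. The planned search for promoter motifs was not run, since no promoter sequence was used here. Depth limits MET13 most, at 171 counts in wild type at 37 °C.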

Other observations

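Genes of the S-adenosylmethionine cycle, which takes up the carbon that MET13 commits to methionine, differed between the wild-type libraries in a way that depends on the scaling. With TMM, 5 of the 7 were at least 2-fold lower in wild type at 37 °C than at 28 °C and 0 higher, with a median of -2.02, where 17.3% of all genes were lower. In TPM, 3 were lower at 37 °C: MET6 at 47.8 TPM at 37 °C and 386 at 28 °C, SAM1 at 162 and 451, and MET17 at 119.8 and 275. SAM2 was nearly level at 164 TPM at 37 °C and 167 at 28 °C. SAH1 at 580.3 and 481, MHT1 at 17.1 and 6.87, and SAM4 at 292 and 60.2 were higher at 37 °C in TPM. Of the 10 adenine genes 2 were lower with TMM, near the share of all genes, with a median of -0.31.

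In the double mutant over hmo1Δ, 1 of the 7 genes was 2-fold lower and 0 higher, where 2.48% of all genes were lower. That gene was SAM2, at 399.9 TPM in the double mutant and 801 TPM in hmo1Δ, a log2 ratio of -1.16. MET17 was at -0.88, MHT1 at -0.27, SAM1 at -0.21 and SAM4 at 0.54, and the median of the 7 was -0.39. These genes were chosen after their values were seen.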
